A study of Homo sapiens with 6 samples.

Results

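The genes MME, CD38, CD24, GCSAM, SERPINA9, LMO2, MYBL1, TCL1A, VPREB3 and SOX11, 10 that mark germinal centre B cells or Burkitt lymphoma, were followed in BL-2 cells after stimulation with lipopolysaccharide (LPS). BL-2 is a human line established from a Burkitt lymphoma, and LPS is a cell wall component of Gram-negative bacteria. The control group was BL-2 cells with no treatment, and the other group was the same line after 6 h of LPS. Each group had 3 samples, hybridised to 1 Affymetrix array each. Both groups are the same tumour line, so they model a transformed B cell rather than a germinal centre. The labels give no dose of LPS, and they do not say whether the samples of a group were separate cultures, so the p-values measure the spread between these arrays, which may be technical.

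Every probe set whose platform annotation gives exactly 1 gene symbol, equal to one of these names, was taken. This gave 22 of the 54613 tested probe sets, and the 10 genes are among 19775 genes with such a probe set. CD24 had 6 probe sets, MYBL1 and SOX11 had 3 each, MME, LMO2 and TCL1A had 2 each, and the others had 1. Of the 22, 12 carry the suffix _s_at and 3 the suffix _x_at, which mark probes that can bind more than 1 transcript. CD24 has near-identical processed pseudogenes, so its probe sets may read more than 1 locus. All values are on the log2 scale of the deposited table, and each probe set has its own scale, so levels are compared between groups and not between genes.

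Germinal centres are sites in lymphoid tissue where antigen-activated B cells divide, mutate their antibody genes and are selected. Cells in this state carry a characteristic surface pattern and transcription factor set, which Burkitt lymphoma largely keeps. Both change when B cells leave the germinal centre as memory or plasma cells. Among the surface proteins here, MME (CD10) is a peptide-cleaving enzyme, CD38 an enzyme that consumes NAD, and CD24 a small glycosylated protein tethered to the membrane by a lipid anchor. MYBL1 and LMO2 are transcription regulators of the germinal centre state. SOX11 is a developmental transcription factor also found in some Burkitt lymphomas. GCSAM is a cytoplasmic adaptor that dampens germinal centre cell motility and associates with the kinase SYK, TCL1A is a co-activator of the kinase AKT, VPREB3 binds nascent immunoglobulin chains, and SERPINA9 (centerin) is a germinal centre protease inhibitor.

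RefSeq promoter windows of build GRCh38.p14 were at hand for 7 of the 10 genes, as 12 windows of 250 bases ending just before an annotated transcription start. Those of VPREB3, CD38 and GCSAM, which have 1 window each and whose LPS values all lay below control, are shown beside that of SERPINA9, whose groups overlapped. Sequences run 5′ to 3′ on the gene's strand. Capitals mark matches, on either strand, to the E-box CANNTG and to the octamer ATGCAAAT. The octamer is the core of the site for the factors OCT1 and OCT2.
VPREB3, chr22:23754426-23754675, minus strand: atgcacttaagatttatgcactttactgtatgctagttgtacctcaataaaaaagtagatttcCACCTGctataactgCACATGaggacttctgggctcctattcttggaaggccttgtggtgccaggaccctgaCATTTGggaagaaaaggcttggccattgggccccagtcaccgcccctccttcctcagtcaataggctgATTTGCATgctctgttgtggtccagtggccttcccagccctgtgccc
CD38, chr4:15778078-15778327, plus strand: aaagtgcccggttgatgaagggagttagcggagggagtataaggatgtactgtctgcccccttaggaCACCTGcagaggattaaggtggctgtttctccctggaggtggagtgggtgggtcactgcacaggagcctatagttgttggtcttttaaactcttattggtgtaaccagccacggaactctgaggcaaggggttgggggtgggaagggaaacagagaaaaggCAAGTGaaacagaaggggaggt
GCSAM, chr3:112133249-112133498, minus strand: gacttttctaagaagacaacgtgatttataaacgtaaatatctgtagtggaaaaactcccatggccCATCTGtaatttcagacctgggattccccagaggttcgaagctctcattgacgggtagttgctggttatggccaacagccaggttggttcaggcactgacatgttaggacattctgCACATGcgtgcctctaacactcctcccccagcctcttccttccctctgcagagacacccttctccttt
SERPINA9, chr14:94476198-94476447, minus strand: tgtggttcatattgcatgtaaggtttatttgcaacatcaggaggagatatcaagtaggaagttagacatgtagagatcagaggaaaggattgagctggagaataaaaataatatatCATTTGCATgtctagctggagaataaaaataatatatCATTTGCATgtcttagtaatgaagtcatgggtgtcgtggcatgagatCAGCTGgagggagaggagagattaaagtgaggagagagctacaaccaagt

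The octamer occurred in 1.63% of 35116 RefSeq windows of this length. It was present once in the VPREB3 window, with its first base 47 bases before the start, and at 2 places in the SERPINA9 window, 133 and 96 bases before it, where it shares bases with an E-box. The other 10 windows did not hold these letters. An E-box was found in 9 of the 12 windows and in 61.8% of all windows. Its version CAGGTG, read on either strand, was in 17.5% of all windows and in 5 of the 12. Of the printed windows it lay in that of VPREB3, 187 bases before the start, and in that of CD38, 183 bases before it. The others were 1 window of CD24 and 2 windows of MME. Those 2 overlap and hold the same site, 79 and 220 bases before their starts. The 12 windows are thus not independent, and the 5 count this site more than once. The motif CCCNNGGG, the core of the EBF1 site, occurred in 17.1% of all windows. Among the 12 it was in a window of MME and a window of CD24, and in none of the 4 printed. VPREB3 and SERPINA9 both held the octamer, which few windows hold, and their LPS differences were -0.32 and -0.05. A match describes the letters of the window and not binding.

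Array medians lay between 6.42 and 6.47, and the lowest values between 5.46 and 5.53. By the mean of 18 hybridisation control probe sets the arrays parted at the widest gap, 0.22, into set A with control 1, LPS 1 and LPS 2 and set B with control 2, control 3 and LPS 3. Because the sets hold unequal numbers of control and LPS arrays, values within each set are given beside the pooled ones, and what separates the sets was not tested. Markers of other cell types that also carry MME, CD24 or CD38 lay mostly near the array medians. The 11 markers of monocytes and neutrophils had control means of 5.85 to 6.70, with 0 of 11 passing and 0 at an unadjusted p under 0.05. Their mean level was 6.16 to 6.21 in controls and 6.15 to 6.18 in LPS arrays. T and NK cell markers had mean levels of 6.31 to 6.41 and 6.36 to 6.40, fibroblast and epithelial markers 6.42 to 6.51 and 6.44 to 6.52, and erythroid and platelet markers 6.39 to 6.46 and 6.34 to 6.47. The highest single marker was COL1A1, a collagen chain of fibroblasts, at a mean of 7.99 in both groups by an _x_at probe set, a brighter level than the 5.75 to 6.72 of the other fibroblast and epithelial markers. The other COL1A1 probe sets had control means of 5.89 to 6.48, close to or below the array medians. In these last 3 lists 0 markers passed the test described next, and 0 had an unadjusted p under 0.05.

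Of the 10 genes MYBL1 fell after LPS. For 6 others, CD38, MME, VPREB3, GCSAM, SOX11 and CD24, all 3 LPS values lay below all 3 control values by the brightest probe set, with differences of -0.33 to -0.26 that did not pass the test over all probe sets. The remaining genes, SERPINA9, TCL1A and LMO2, had differences of -0.05, -0.03 and 0.04. The test was limma's moderated linear model, adjusted by Benjamini-Hochberg over the 54613 probe sets at a threshold of 0.05. By it 1 of the 22 probe sets passed, in the direction of a fall, where 0.134% of all tested probe sets did, and 11 of 22 had an unadjusted p under 0.05, where 8.08% of all tested probe sets did. Taking only the brightest probe set, 7 of the 10 genes had such a p, where 9.56% of all genes did. The 3 LPS values lay below the 3 controls in 11 of 22 probe sets, where 6.38% of all tested probe sets showed that pattern. Several of the 22 read the same gene, so they are not independent. Counted by gene, the pattern held in 7 of the 10 and in 1542 of all 19775. The LPS values lay above the controls in 0 of 22 probe sets. By the brightest probe set they did so in 0 of the 10 genes and in 1572 of all 19775, so the 0 is near that share. The median difference over the 10 genes was -0.29, against 0.0016 over all genes and 0.0068 over the 12654 genes above the median level.

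**Figure D1:**
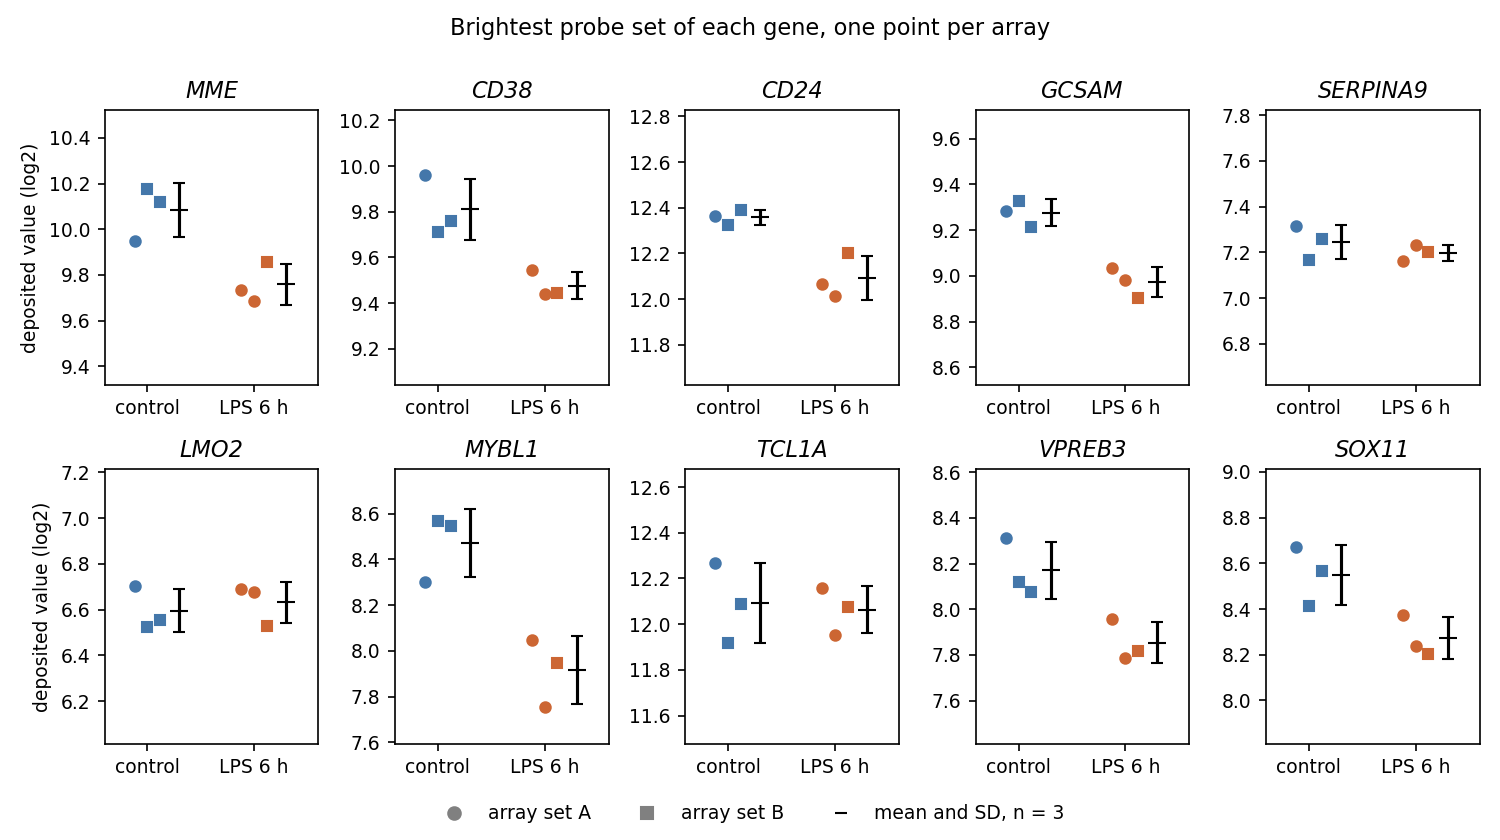
Level of the brightest probe set of each gene on each array (log2, y axis, spanning the same range of 1.2 in every panel) in control and LPS samples; circles are array set A, squares array set B, and black bars the mean and SD of 3 arrays. In 7 panels, MME, CD38, CD24, GCSAM, MYBL1, VPREB3 and SOX11, the LPS points all lie below the control points, and in SERPINA9, LMO2 and TCL1A the groups overlap.

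MYBL1, the A-MYB transcription factor of dividing germinal centre cells, had values of 8.30, 8.57 and 8.54 in controls 1 to 3 and 8.05, 7.75 and 7.95 in LPS 1 to 3. The lowest control stood 0.26 above the highest LPS array, so the groups did not overlap. It fell by 0.56 on the log2 scale, to 68.0% of the control level (SE 0.096, 95% interval -0.76 to -0.35, limma adjusted p = 0.0288, n = 3 per group). Its difference ranked 30 from the most negative among the 19775 genes. The call rests on 1 probe set and was lost without any 1 of 5 arrays. The dimmer probe sets, 231268_at at a control mean of 6.72 and 237014_at at 6.30, gave -0.03 and -0.05, at levels close to the array medians. The mean over the 3 probe sets was -0.21 (limma adjusted p = 0.218). Leaving out control 1 gave an adjusted p of 0.00472. Leaving out control 2 gave 0.158 and control 3 gave 0.221, while the fits lacking LPS 1, 2 or 3 gave 0.0569, 0.234 and 0.0572. The differences in these 6 fits were -0.64 to -0.47. The difference was -0.40 in array set A alone and -0.61 in set B alone.

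SOX11 was covered by 3 probe sets, all marked _s_at. Its brightest probe set stood at 8.67, 8.41 and 8.57 in controls and at 8.38, 8.24 and 8.20 in LPS arrays. The groups were apart by 0.036, less than the SD of either group (0.13 and 0.091). The difference was -0.28 (SE 0.088, limma adjusted p = 0.343), and the dimmer probe sets gave -0.26, with groups apart by 0.0082, and -0.16, with groups that overlapped. All 3 thus pointed the same way without passing.

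LMO2, a LIM-domain adaptor that bridges DNA-binding factors, had values of 6.70, 6.53 and 6.56 in controls and 6.69, 6.68 and 6.53 in LPS arrays by its brightest probe set. These lie close to the array medians, and the groups overlapped throughout. The difference was 0.04 with a 95% interval from -0.11 to 0.18, and 0.04 with an interval from -0.07 to 0.15 by the dimmer probe set. Either array set alone gave a value just below 0 for the brightest probe set (-0.017 and -0.011), and a fit that blocks on array set turned its sign, to -0.01.

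CD38 had the most negative difference among the surface proteins by the brightest probe set. It read 9.96, 9.71 and 9.76 in controls and 9.54, 9.44 and 9.44 in LPS arrays, with the groups 0.17 apart. The difference was -0.33, or 79.3% of the control level (SE 0.093, 95% interval -0.53 to -0.13, limma adjusted p = 0.24). Control 1 was the highest array, and without it the difference was -0.26.

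MME had 2 probe sets of similar brightness, and their values differed. The brighter, 203435_s_at, read 9.95, 10.18 and 10.12 in controls and 9.73, 9.69 and 9.86 in LPS arrays, with the groups 0.093 apart. It gave -0.32 (SE 0.095, 95% interval -0.53 to -0.12, limma adjusted p = 0.28). The other, 203434_s_at, read 9.99, 9.91 and 9.88 in controls and 9.95, 9.83 and 9.66 in LPS arrays. Its groups overlapped, and it gave -0.12 (95% interval -0.32 to 0.09, limma adjusted p = 0.83). With LPS in the fit, set B exceeded set A by 0.17 for the first and lay below it for the second (-0.16), so these 2 probe sets differed in opposite ways between the array sets.

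CD24 was read by 6 probe sets, and all 6 lay below 0, from -0.37 to -0.13. The brightest, 209771_x_at, read 12.36, 12.32 and 12.39 in controls and 12.07, 12.02 and 12.20 in LPS arrays, a difference of -0.26 (SE 0.092, limma adjusted p = 0.424). A second _x_at probe set of like brightness, 216379_x_at, read 12.39, 12.36 and 12.38 in controls and 12.01, 11.88 and 12.13 in LPS arrays. Its controls had an SD of 0.013, the smallest of the 22 probe sets, and its difference was -0.37, or 77.5% of the control level (limma adjusted p = 0.186). The probe set 209772_s_at gave the same -0.37 (limma adjusted p = 0.204). The groups were apart in 4 of the 6 probe sets. They overlapped in 208651_x_at, at -0.16, and in 208650_s_at, at -0.13, where control 1 stood at 11.27 against 10.71 and 10.84 for the other controls.

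**Figure D2:**
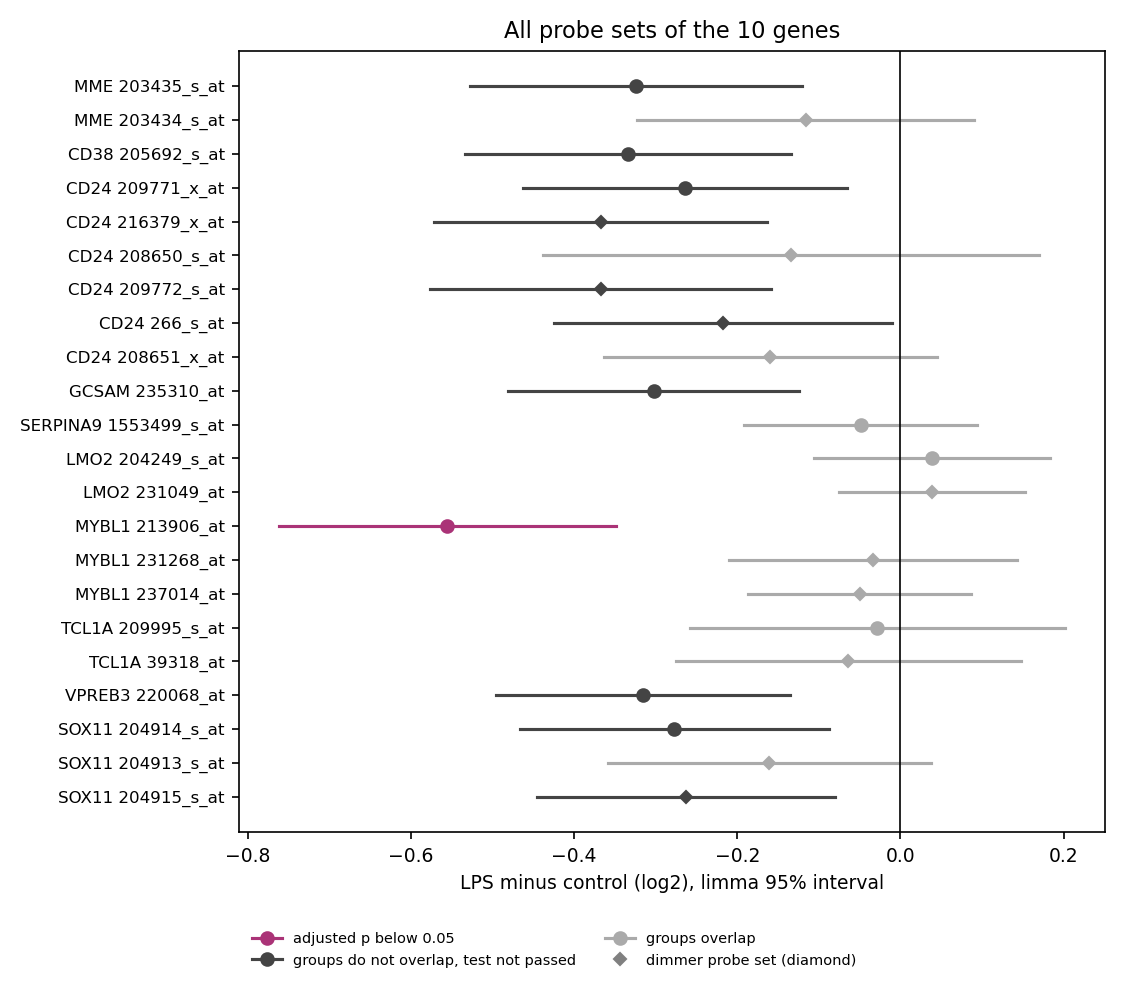
Difference between LPS and control (log2, x axis) with the limma 95% interval for each of the 22 probe sets; circles are the brightest probe set of a gene, diamonds dimmer ones, and colour gives whether the test was passed and whether the groups overlapped. Only the brightest MYBL1 probe set passed, at -0.56; 20 of 22 points lie below 0, the exceptions being the 2 of LMO2.

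GCSAM, the motility adaptor, read 9.28, 9.33 and 9.21 in controls and 9.03, 8.98 and 8.90 in LPS arrays. The groups were 0.18 apart, and each had a small spread (SD 0.059 and 0.066). The difference was -0.30, or 81.1% of the control level (SE 0.083, 95% interval -0.48 to -0.12, limma adjusted p = 0.23).

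VPREB3, the immunoglobulin chain partner, read 8.31, 8.12 and 8.08 in controls and 7.96, 7.79 and 7.82 in LPS arrays. All LPS values were lower, with a gap of 0.12. The difference was -0.32, or 80.3% of the control level (SE 0.084, 95% interval -0.50 to -0.14, limma adjusted p = 0.207), the second smallest p of the brightest probe sets after MYBL1. SERPINA9, the protease inhibitor, read 7.32, 7.17 and 7.26 in controls and 7.16, 7.23 and 7.20 in LPS arrays. Its groups overlapped, at -0.05 (95% interval -0.19 to 0.09).

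TCL1A, the AKT co-activator, was bright and had close values in both groups. Its brightest probe set read 12.27, 11.92 and 12.09 in controls and 12.16, 11.95 and 12.08 in LPS arrays. The LPS range lay inside the control range. The difference was -0.03 with a 95% interval from -0.26 to 0.20, and the other probe set, 39318_at, gave -0.06 with an interval from -0.28 to 0.15. The lower ends of these intervals lie close to the difference of CD24 (-0.26). For the brightest probe set, set A alone gave -0.21 and set B alone 0.07. Its sign turned when control 1 (0.06) or LPS 2 (0.03) was left out.

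In order of the difference by the brightest probe set, the genes ran MYBL1, CD38, MME, VPREB3, GCSAM, SOX11, CD24, SERPINA9, TCL1A and LMO2. From CD38 to CD24 the values lay within 0.07 of each other, less than the SE of any of them. The 95% interval of MYBL1 overlapped those of all 6. Differences between genes were not tested. Within the array sets the 7 genes whose groups did not overlap were below 0 in both, at -0.47 to -0.24 in set A and at -0.61 to -0.16 in set B, a sign that their separated groups fix in advance.

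**Figure D3:**
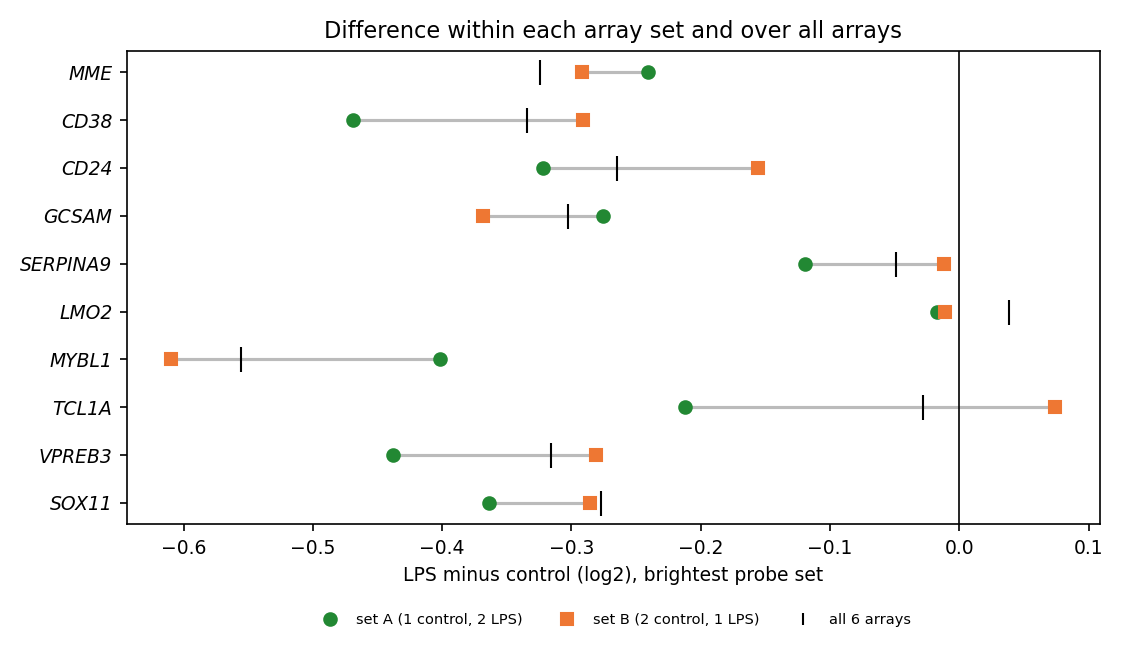
LPS minus control (log2, x axis) by the brightest probe set of each gene within array set A (circles, 1 control and 2 LPS arrays), within set B (squares, 2 controls and 1 LPS array) and over all 6 arrays (bars). MYBL1 is the most negative over all arrays, CD38 the most negative in set A at -0.47, and TCL1A is the only gene with opposite signs in the 2 sets, -0.21 and 0.07.

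When limma blocked on array set, 5 of the 10 genes fell by the brightest probe set, where 1.16% of all genes did so in that fit. They were MYBL1 (-0.51, adjusted p = 0.00137), CD38 (-0.38, adjusted p = 0.00954), VPREB3 (-0.36, adjusted p = 0.0133), GCSAM (-0.32, adjusted p = 0.0322) and SOX11 (-0.32, adjusted p = 0.0342). Of the 22 probe sets 7 fell, against 0.716% of all tested, the other 2 being 209772_s_at (-0.41) and 216379_x_at (-0.34) of CD24. MME missed the threshold at -0.27 (adjusted p = 0.082). These calls rest on few arrays. Without LPS 3, the only LPS array of set B, 0 of the 10 genes passed with the block, although 1 of the 22 probe sets did, and without control 1, the only control of set A, MYBL1 alone passed. Leaving out LPS 1 kept 3 of the genes past the threshold. Quantile normalisation without the block gave 5 probe sets, of MYBL1, CD38 and CD24.

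Other genes of the germinal centre programme were taken from a list of 23, of which 21 had a probe set with 1 symbol. None passed limma, where 0.207% of all genes passed as lower and 0.182% as higher, and 8 had an unadjusted p under 0.05, 6 below and 2 above 0, where 4.59% and 4.97% of all genes did so. Their median was -0.06, with 12 of 21 below 0, beside 9 of 10 among the markers. The smallest p-values were those of STAP1, an adaptor of B cell receptor signalling (-0.56, adjusted p = 0.0675), IRF8, a transcription factor of germinal centre cells (-0.43, adjusted p = 0.13), ASB13 (-0.41, adjusted p = 0.129) and the death receptor FAS (0.26, adjusted p = 0.186). The sign of FAS turned, to -0.02, by its only probe set not marked for cross-hybridisation. That probe set had a control mean of 6.20, below the array medians. The remaining FAS probe sets lay above 0, at 0.11, 0.22 and 0.16. The dimmer probe set of STAP1 passed, at -0.51 (adjusted p = 0.0422). Blocking on array set, 5 of the 21 fell, where 1.16% of all genes did.

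Genes of the plasma cell programme, to which germinal centre cells can exit, were spread around 0 (12 measured, median 0.04, 7 above 0), and 1 of the 12 passed. ELL2, an elongation factor that promotes secretory antibody mRNA in plasma cells, was that gene and rose. It read 7.42, 7.45 and 7.37 in controls and 7.98, 8.06 and 7.81 in LPS arrays, a difference of 0.54 (SE 0.078, limma adjusted p = 0.00953), and a dimmer probe set, 226982_at, also rose, by 0.44 (adjusted p = 0.00949). The other 2 ELL2 probe sets gave 0.17 and 0.03. The rise lost its call when control 3 (adjusted p = 0.113), LPS 1 (0.0622) or LPS 2 (0.1) was left out, at differences of 0.48 to 0.52. IRF4, which drives exit from the germinal centre, had a difference of 0.58 (adjusted p = 0.0852). Its dimmer probe sets gave 0.26 (216986_s_at, adjusted p = 0.343) and 0.03. Blocking on array set, its brightest probe set passed too, at 0.48 (adjusted p = 0.00189), while 216986_s_at did not (adjusted p = 0.243). By the brightest probe sets 2 of the 12 genes thus rose in that fit, where 0.865% of all genes did. XBP1 and DERL3 of the secretory apparatus gave -0.13 and -0.12 (adjusted p = 0.624 and 0.736), with other DERL3 probe sets at 0.12 and 0.05. In this list SDC1, SLAMF7 and XBP1 had control means of 6.37, 6.44 and 6.46, close to the array medians, where a fall may not show.

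Relatives and partners of the 10 genes did not pass in any of 30 measured cases, and 3 had an unadjusted p under 0.05, a share near the 9.56% of all genes. Their median was -0.0035. Among the relatives of VPREB3 (-0.32), the surrogate light chain gene IGLL1 lay above 0, at 0.54 (adjusted p = 0.0541), opposite in sign. The other surrogate light chain gene, VPREB1, gave 0.12 (adjusted p = 0.558) at a control mean of 6.11, below the array medians. Blocking on array set, IGLL1 rose by 0.50 (adjusted p = 0.00255), where 0.865% of all genes rose. It was the only one of the 30 to pass. IGLL1 probes may also bind other immunoglobulin lambda-like transcripts. SIGLEC10, a receptor for CD24, gave -0.18 and SOX4, a relative of SOX11, -0.17 (adjusted p = 0.617 and 0.738).

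Markers shared by all B cells stood beside these values. Of 10 measured, 0 passed limma, 4 had an unadjusted p under 0.05, all below 0, where 4.59% of all genes did so, and the median was -0.16. By array set that median was -0.23 for A and -0.0086 for B. The 4, named after their values were seen, were CD79A (-0.38), CD37 (-0.37), BLK (-0.36) and CD22 (-0.20). Of the other 6, 4 lay below 0, from -0.18 to -0.01, and 2 above 0, PAX5 at 0.31 (unadjusted p = 0.0619) and CD72 at 0.05. Blocking on array set, CD79A (-0.35, adjusted p = 0.0103) and CD37 (-0.39, adjusted p = 0.00905) fell, where 1.16% of all genes did. The mean level of the 10 markers was 10.04 to 10.15 in controls and 9.91 to 10.03 in LPS arrays. The values of CD79A, CD37 and BLK were thus at least as negative as those of the 6 germinal centre markers from CD38 to CD24, though not of MYBL1, and their part in the markers' values was not tested. In a bulk sample, fewer cells of a type and less RNA per cell cannot be told apart.

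**Figure D4:**
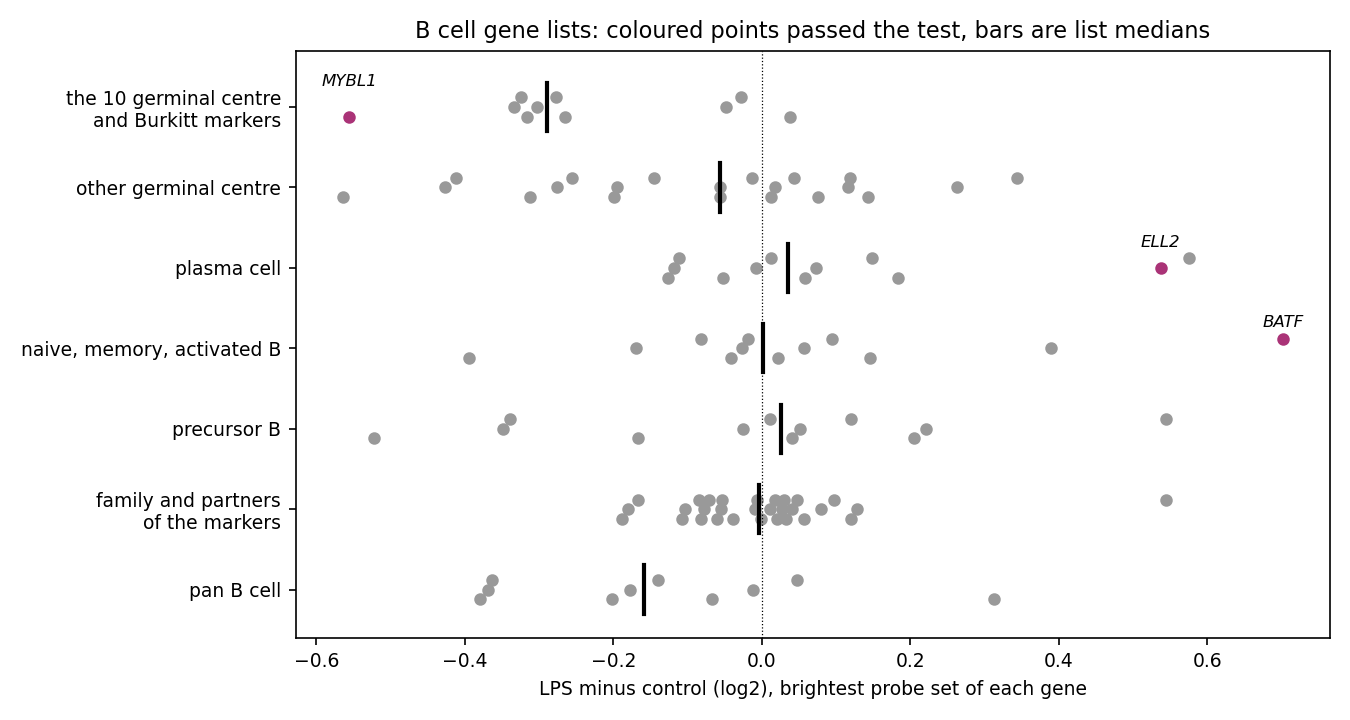
LPS minus control (log2, x axis) by the brightest probe set of each gene, for the 10 markers and 6 further B cell lists; bars are list medians and coloured points passed the limma test. The markers have a median of -0.29 and pan B cell genes one of -0.16, and the other lists lie between -0.06 and 0.04. MYBL1, ELL2 and BATF are the 3 points that passed. Several lists hold genes with levels close to the array medians, where a fall may not show.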

How the data were processed

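Total RNA of 6 BL-2 samples was biotin-labelled by in vitro transcription, per the labels' protocols. The authors deposited 1 log2 value per probe set and array. Background correction, summary and normalisation are not given in the sources used here, and base 2 is inferred from the range. Leaving out 62 Affymetrix controls left 54613 probe sets. Symbols came from the platform annotation; 41091 probe sets had 1, 1801 several and 11721 none, and 41037 of those with 1 matched the RefSeq gene table (GRCh38.p14). A gene is shown by its brightest probe set over all 6 arrays.

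LPS and control were compared with limma 3.58.1 in R 4.3.3 (group as the only term, empirical Bayes with intensity trend, two-sided, Benjamini-Hochberg over all tested probe sets, threshold 0.05). The steps were tested on simulated arrays. The genes, lists and alternatives, and the array sets used as a block, were chosen with earlier results of these data known. Companion genes named are those that passed and the 4 with the smallest p per list. Some genes of the lists were not analysed here. The number of arrays limits the precision, with a median SE of 0.063.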

Additional observations from a re-analysis of the deposited data

How the results depend on the processing

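MME, CD38, CD24, GCSAM, SERPINA9, MYBL1, VPREB3 and SOX11 kept their sign under all alternatives run for them, 15 or 16 each, and MYBL1 passed in 10 of 16. LMO2 turned to -0.014 with the array set block. TCL1A ranged from -0.114 to 0.0604 with an array left out, above 0 without control 1 or LPS 2, and from -0.212 to 0.0744 with the array set block too, above 0 without control 1. Without probe sets marked for cross-hybridisation FAS was at -0.0234 and DERL3 at 0.123, and DERL3 was at 0.0189 as the mean over probe sets. The causes were not tested. Of the 22 probe sets 1 passed, and 5 with quantile normalisation, 3 with the replicate block, 7 with the array set block and 0 to 1 without an array. By gene the counts were 1, and 3, 2, 5 and 0 to 1 in the same order, and 0 by the mean over probe sets, where the genes' median was -0.23. With the array set block and an array left out, 1 to 10 probe sets and 0 to 5 genes passed. Over all probe sets 144 passed, and 292 with quantile normalisation (58.6% lower, against 50.7%), 309 with array weights, 498 with the replicate block, 734 with the array set block, 83 without cross-hybridising probe sets and 10 to 374 without an array. Arrays of the same replicate number correlated at 0.44, -0.04 and 0.23 in their deviations from the group means, and 3 of 6 were closest to their own number, so the numbers were not taken as pairs; with the replicate block VPREB3 passed (adjusted p = 0.0443).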

Other observations

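Genes of naive, memory and activated B cells did not shift as a list (12 measured, median 0.0022). Among them CD44, FCER2 and CCND2 had control means of 6.40, 6.42 and 6.28, close to or below the array medians, where a fall may not show. The list held a rise of BATF, an AP-1 type transcription factor of activated lymphocytes. BATF read 8.67, 8.69 and 8.72 in controls and 9.18, 9.50 and 9.51 in LPS arrays, a rise of 0.70 (SE 0.098, limma adjusted p = 0.00846). The call was lost when control 3 (adjusted p = 0.0846) or LPS 2 (0.099) was left out. The costimulatory ligand CD86 gave -0.39 (adjusted p = 0.0544), with its 2 other probe sets at -0.34 and -0.24, the survival gene BCL2A1 gave 0.39 (adjusted p = 0.132) and the receptor TNFRSF13B 0.15 (adjusted p = 0.733). Blocking on array set, CD86 fell (-0.38, adjusted p = 0.00758) and BCL2A1 rose (0.36, adjusted p = 0.0299), as did BATF. In that fit 1.16% of all genes fell and 0.865% rose.

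Genes of precursor B cells, a stage that also carries MME, CD24 and VPREB3, spread in both directions (12 measured, 0 passing limma, median 0.03). Of them 7 had an unadjusted p under 0.05, 4 above and 3 below 0, where 9.56% of all genes had such a p. VPREB1, RAG1 and ERG had control means of 6.11, 5.99 and 6.11, below the array medians, where a fall may not show. Beside IGLL1, the cytokine receptor IL7R gave -0.52 (adjusted p = 0.0682), LEF1, a factor of the WNT pathway, -0.35 (adjusted p = 0.17) and EBF1, a factor that commits cells to the B lineage, -0.34 (adjusted p = 0.387). The other IL7R probe set gave -0.35. Dimmer EBF1 probe sets gave -0.39 (adjusted p = 0.0541), -0.26 and -0.04. Blocking on array set, 3 of the 12 fell and 1 rose, where 1.16% of all genes fell and 0.865% rose.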
